A study of Homo sapiens with 16 samples.

Results

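The comparison set the genome positions of TOP2A cleavage in genistein-treated K562 cells against those in K562 cells given only the DMSO vehicle. K562 is an established human myeloid leukaemia line. Cleavage was mapped as cleavage cluster regions, short stretches where DNA released from immunocaptured DNA topoisomerase II alpha (TOP2A) piled up in sequencing. Members were all regions on chromosomes 1 to 22 of the pooled genistein list and of the pooled DMSO list, with overlapping genistein entries joined. This gave 395617 genistein regions and 296907 DMSO regions, 692524 in all, out of 1481258 entries in the 5 lists of the series. A region was called shared where it overlapped a region of the other list by at least 1 bp, and genistein-only or DMSO-only otherwise.

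The genistein list pooled 2 pre-amplified libraries from cells given 50 µM genistein for 1 h, in medium with 0.05% DMSO. The DMSO list pooled 3 pre-amplified libraries from cells given 0.05% DMSO alone. Vehicle exposure was 1 or 4 h per the labels' protocols, and which vehicle library had which time is not recorded, so whether times match is unknown. The labels do not say whether libraries of a treatment came from separate cultures. The other 11 of the 16 libraries of the series were not part of this comparison. Pooled lists of the other poisons were set against the DMSO list once, further below.

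TOP2A cuts both strands of a DNA duplex, passes another duplex through the gap and reseals it, and during this step it stays covalently bound to the DNA ends. In dividing cells it removes the tangles and supercoils that replication, transcription and mitosis leave. TOP2 poisons raise the number of these cleavage complexes, and cleavage at genes such as KMT2A is known from leukaemias that follow treatment with such drugs. Genistein is a soy isoflavone that acts as a TOP2 poison and also inhibits tyrosine kinases and binds oestrogen receptors.

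Since the authors pooled the libraries of a treatment, no region has replicate values and nothing was tested. Intervals given with shares are exact binomial 95% intervals (Clopper-Pearson), and intervals given with ratios are exact conditional binomial 95% intervals. Both cover the counting of regions only, because each treatment has 1 pooled list and the spread between libraries is not in it. Reads from PCR without molecular identifiers are also not independent molecules, which the intervals do not cover either. Every region carries a value as the authors deposited it, with no stated unit. The depth of the libraries is unknown, since the lists hold called regions. A scaled ratio is the genistein number over the DMSO number, divided by the ratio of the list sizes, so that 1 means equal shares of both lists.

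The values carried a trace of the pooled libraries. Most were whole multiples of a few steps, as read numbers scaled by library would be, and regions could be sorted by step into library parts. The genistein list held a larger part of 149674 regions (step 0.3585) and a smaller part of 145092 regions (step 0.3387). The DMSO list held a coarse part of 123631 regions (step 0.3382) and a fine part of 119729 regions (step 0.2307), and with 3 libraries behind these 2 parts, 1 of them may pool libraries. The fine part stood apart: its median value was 2.78, against 9.12 in the coarse DMSO part, and it reached down to 1.84, against 3.71. No genistein part had a fine step, so treatment and step cannot be told apart in a comparison of the whole lists. Results are therefore also given for the 2 genistein parts against the coarse DMSO part alone, called the coarse comparison below. Parts were not matched to named libraries, and 27.3% of genistein values and 19.6% of DMSO values fell in no part.

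Region sequences are shown where both lists met at the start of a gene, because there the same bases were recovered with and without genistein. Of 15101 coding genes with a promoter in the RefSeq table (GRCh38.p14, 250 bases before to 50 bases after the start), 44 had a genistein and a DMSO region meeting inside the promoter. The 4 promoters below are from the 10 with the highest lesser value of both lists, printed 5′ to 3′ along the gene, and capitals mark the bases that both regions covered. OXCT1 encodes the enzyme that activates ketone bodies in mitochondria, and its promoter lies at chr5:41870376-41870675 on the minus strand. SLC2A5 encodes the fructose transporter GLUT5 (chr1:9069586-9069885, minus strand). FIG4 encodes a phosphoinositide phosphatase (chr6:109691046-109691345, plus strand). NARS2 encodes the mitochondrial asparaginyl-tRNA synthetase (chr11:78574815-78575114, minus strand).
OXCT1: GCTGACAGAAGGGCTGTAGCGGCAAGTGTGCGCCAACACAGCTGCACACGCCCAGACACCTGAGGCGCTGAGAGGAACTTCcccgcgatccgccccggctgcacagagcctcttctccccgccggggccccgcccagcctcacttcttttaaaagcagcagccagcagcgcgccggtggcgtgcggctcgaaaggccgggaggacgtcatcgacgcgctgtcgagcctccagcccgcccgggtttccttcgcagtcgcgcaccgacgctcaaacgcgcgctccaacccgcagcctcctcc
SLC2A5: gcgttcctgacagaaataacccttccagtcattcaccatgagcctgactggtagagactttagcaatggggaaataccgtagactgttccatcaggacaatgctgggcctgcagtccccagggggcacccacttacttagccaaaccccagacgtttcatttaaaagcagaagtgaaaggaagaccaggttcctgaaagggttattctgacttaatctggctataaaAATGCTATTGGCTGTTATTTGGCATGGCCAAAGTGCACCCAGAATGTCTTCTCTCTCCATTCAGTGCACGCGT
FIG4: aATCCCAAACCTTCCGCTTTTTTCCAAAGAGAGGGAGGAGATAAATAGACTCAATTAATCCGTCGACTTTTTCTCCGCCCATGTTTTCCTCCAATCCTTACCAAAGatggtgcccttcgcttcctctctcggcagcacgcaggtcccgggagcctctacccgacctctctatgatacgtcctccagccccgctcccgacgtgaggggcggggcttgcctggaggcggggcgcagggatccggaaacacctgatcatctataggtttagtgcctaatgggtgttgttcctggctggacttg
NARS2: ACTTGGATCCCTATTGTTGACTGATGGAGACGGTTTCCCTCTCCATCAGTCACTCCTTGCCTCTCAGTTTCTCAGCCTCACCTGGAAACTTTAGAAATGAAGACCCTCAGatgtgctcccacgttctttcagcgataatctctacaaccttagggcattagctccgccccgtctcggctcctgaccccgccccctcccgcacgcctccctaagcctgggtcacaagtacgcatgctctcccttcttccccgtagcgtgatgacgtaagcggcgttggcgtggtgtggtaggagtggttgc

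Common bases were counted inside the printed promoter only, and the overlap of the regions can run on beyond it. In OXCT1 the 81 common bases lay upstream of the start, at positions -250 to -170 counted from it. Its promoter had 68.7% G and C and 34 CG steps. The OXCT1 regions had values of 10.84 with genistein and 9.81 with DMSO. In SLC2A5 the 73 common bases spanned the start itself, from position -23 to 49, in a promoter of 47.7% G and C with 5 CG steps. The SLC2A5 regions had values of 27.62 with genistein and 8.45 with DMSO. FIG4 shared 105 bases (values 14.69 with genistein and 8.07 with DMSO) and NARS2 shared 110 (16.95 with genistein and 7.38 with DMSO), in both cases upstream of the start. The same rule named DGKH, PRR9, ZNF117, PRR11, KLHL3 and LAMTOR5, in which 13 to 73 bases were common. In PRR11 alone among the 10 was the genistein value the lower, at 8.13 with genistein and 11.84 with DMSO.

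The first question was how much cleavage each list held. Genistein gave more regions and higher values than the vehicle. There were 395617 genistein regions and 296907 DMSO regions, a ratio of 1.33, and they covered 68.1 Mb with genistein and 49.2 Mb with DMSO, or 2.37% and 1.71% of chromosomes 1 to 22. Widths were alike, with medians of 157 bp for genistein and 153 bp for DMSO. The values had a median of 12.91 and a range of 3.72 to 241.41 with genistein, and a median of 6.09 and a range of 1.84 to 195.29 with DMSO.

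The excess grew with the value required. At values of at least 4 there were 390110 genistein and 200339 DMSO regions, a ratio of 1.95, and at least 16 gave 154133 genistein and 47663 DMSO regions, a ratio of 3.23. Among the strongest, at 48 or more, 13925 genistein regions stood beside 2864 DMSO regions, a ratio of 4.86. Within the coarse step the difference was smaller: median values were 10.75 and 11.51 in the genistein parts and 9.12 in the coarse DMSO part, for values under 30. List size also follows the number and depth of pooled libraries, and their part in these ratios was not tested.

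The second question was whether genistein acted where vehicle cells already carried cleavage. Few regions were common to both. Of the genistein regions, 27130 (6.86%, 95% interval 6.78 to 6.94) overlapped a DMSO region, and of the DMSO regions 27111 (9.13%, 9.03 to 9.24) overlapped a genistein region. That left 368487 genistein-only and 269796 DMSO-only regions. At values of at least 4 in both lists, 19201 genistein regions (4.92%) and 19120 DMSO regions (9.54%) were shared. With 48 or more required in both, 23 were shared on either side, 0.165% of the genistein and 0.803% of the DMSO regions. This cut left only 13925 genistein and 2864 DMSO regions to be met. Shares at a cut in both lists are therefore not comparable with those against the full lists.

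The shared proportion of genistein regions was 7.25% (6.57 to 7.96) below a value of 4 and 6.29% (6.04 to 6.55) at 4 to 6. It was lowest at 6 to 8 with 6.19% (5.99 to 6.40), and the stronger regions above were shared a little more often, 7.31% (7.13 to 7.51) at 16 to 24 and 8.77% (7.56 to 10.1) at 80 or more. Among DMSO regions it was 7.97% (7.80 to 8.15) below 4 and 9.27% to 10.2% in the bins between 4 and 48. In the 299 DMSO regions at 80 or more, 17 were shared, or 5.69% (3.35 to 8.95). Shared genistein regions had a median value of 13.89, against 12.91 in genistein-only regions, and shared DMSO regions had a median of 6.76, against 6.08 in DMSO-only regions.

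Width moved with both measures. Genistein regions with 1 value shared 4.08% of their number below 100 bp and 13.5% at 400 bp or more, and DMSO regions with 1 value shared 5.27% and 18.4% in the same width bins. Median width was 133 bp in genistein regions with values below 4 and 190 bp at 80 or more. A wider region has more bases that can touch another, and the part of width in the relation to value was not tested. Regions with 2 or more values, where several entries or libraries had met within a treatment, were shared more often. The share was 10.98% (10.4 to 11.6) of 10090 such genistein regions, against 6.75% of those with 1 value. It was 13.6% (12.8 to 14.4) of 7283 such DMSO regions, against 9.02% of those with 1 value. Regions with several values were also the wider, with medians of 238 bp against 156 bp in genistein. At widths from 100 bp up, regions with several values were shared more often in every DMSO width bin. The same held in every genistein width bin except that of 300 to 400 bp. At 150 to 200 bp the genistein shares were 10.26% with several values and 6.71% with 1 value. Between 300 and 400 bp the genistein shares were 9.33% with several values and 10.2% with 1 value. Below 100 bp the DMSO order was reversed, on 35 regions with several values.

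**Figure D1:**
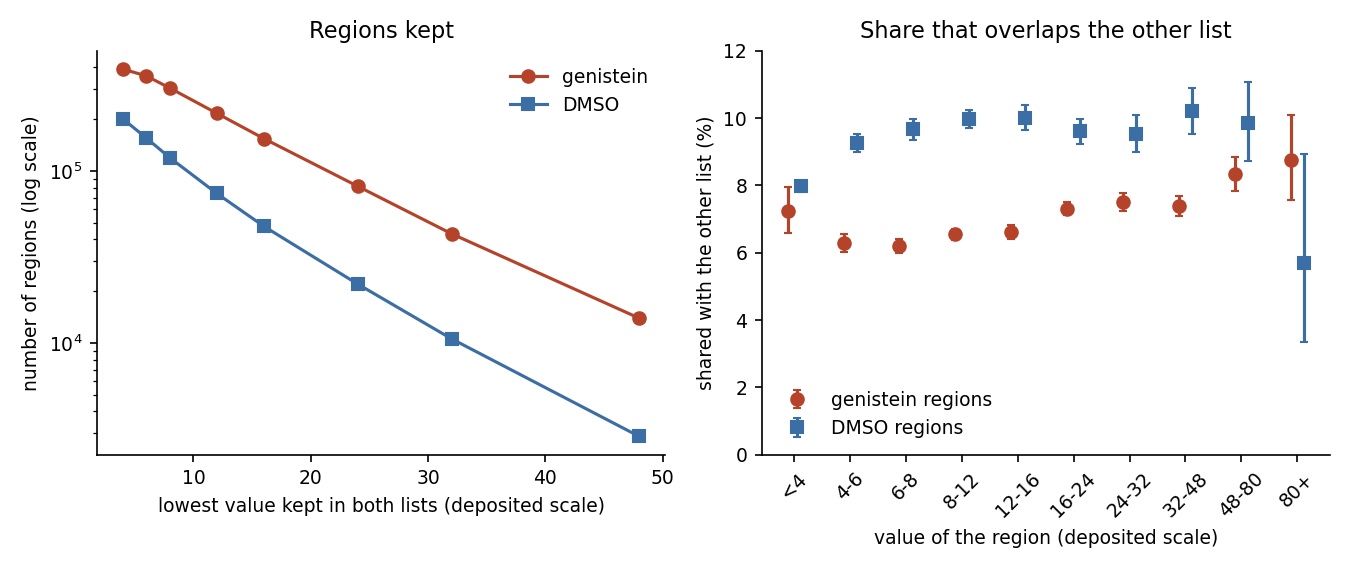
Left, number of genistein (red circles) and DMSO (blue squares) regions left at each lowest value, on a log axis. Right, percentage of regions in each value bin that overlapped the other list, with exact binomial 95% intervals; genistein shares were 7.25% below 4, 6.19% at 6 to 8 and 8.77% at 80 or more, and DMSO shares lay near 10% between 8 and 80.

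Pairs were taken for an overlap of at least 1 bp. With median widths of 157 bp (genistein) and 153 bp (DMSO), that rule alone keeps the centres of a pair near each other. Closeness beyond the rule was not tested. The 27249 overlapping pairs had a median overlap of 109 bp (quartiles 57 and 139 bp) and a median distance between centres of 66 bp. In 70.9% of pairs the overlap reached at least 50% of the shorter region, and in 29.9% a region lay wholly inside its partner. The genistein value was the higher in 74.1% of pairs. The value with genistein and the value with DMSO were almost unrelated across pairs (Spearman correlation 0.01 over 27249 pairs, which share the pooled libraries and are not independent replicates). In 7 pairs both values reached 60.

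Regions that did not meet mostly lay some kilobases from the nearest region of the other list. For genistein-only regions the median distance to a DMSO region was 2817 bp, and 22.6% had a DMSO region within 1000 bp. For DMSO-only regions the median distance to a genistein region was 2041 bp, and 29.4% had a genistein region within 1000 bp. The genistein list is the denser, with 13.8 regions per 100 kb against 10.3 in the DMSO list, and distances follow that density.

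Overlap between the treatments was set beside overlap within genistein. Of the larger genistein part, 3.58% (3.48 to 3.67) overlapped the smaller genistein part, 3.21% (3.13 to 3.31) the coarse DMSO part and 2.52% (2.44 to 2.60) the fine DMSO part. Of the smaller genistein part, 3.69% (3.59 to 3.79) overlapped the larger genistein part, 3.06% (2.97 to 3.15) the coarse DMSO part and 2.44% (2.37 to 2.52) the fine DMSO part. A part with more regions is met more often, so shares were also divided by the size of the part met. Per 100000 regions of that part, the larger genistein part shared 2.46% (2.40 to 2.53) with the smaller genistein part and 2.60% (2.53 to 2.67) with the coarse DMSO part. The smaller genistein part shared 2.46% (2.40 to 2.53) with the larger one and 2.47% (2.40 to 2.54) with the coarse DMSO part. Scaled in this way, genistein regions met regions of the other genistein part no more often than regions of the coarse DMSO part. Against the fine DMSO part the scaled shares were lower, at 2.11% (2.04 to 2.17) for the larger and 2.04% (1.98 to 2.11) for the smaller genistein part. The coarse and fine DMSO parts shared 2.44% per 100000 regions with each other. How many genistein-only regions would recur in a further genistein library was not tested.

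**Figure D2:**
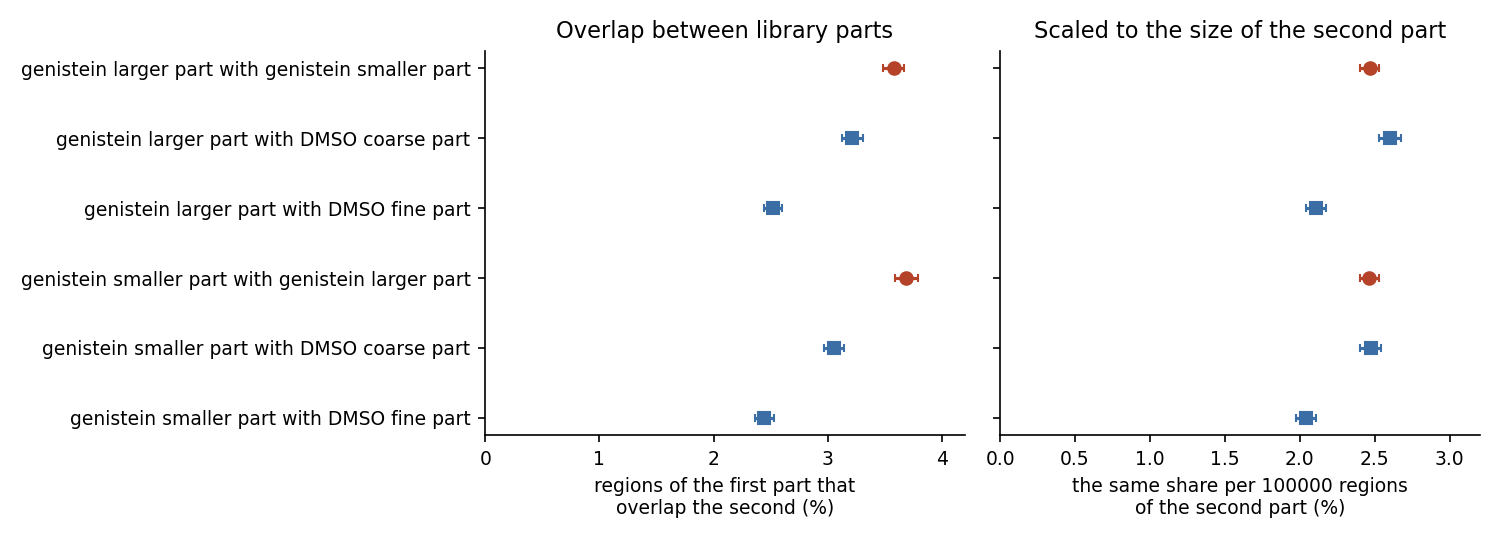
Left, percentage of regions of the first-named library part that overlapped the second. Right, the same percentage per 100000 regions of the second part. Red circles are overlaps within genistein and blue squares overlaps with a DMSO part, with 95% intervals; scaled, the genistein parts met each other at 2.46% and the coarse DMSO part at 2.60% and 2.47%.

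The other poisons of the series were set against the same DMSO list, so these values have their vehicle regions in common. The share of poison regions was 8.46% for etoposide, 6.86% for genistein and 7.13% for mitoxantrone after 1 h, and 7.94% for p-benzoquinone after 4 h. The share of the DMSO list met was 4.97% by etoposide, 9.13% by genistein, 4.66% by mitoxantrone and 9.30% by p-benzoquinone. The poison lists differ in length, in dose and in the number of pooled libraries. At values of at least 4 the share of poison regions was lowest for genistein (4.92%), with mitoxantrone at 5.17%, p-benzoquinone at 5.24% and etoposide at 5.79%. The share of the DMSO list met was then 4.07% by etoposide, 9.54% by genistein, 4.92% by mitoxantrone and 5.65% by p-benzoquinone.

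Most of the strongest single regions were in 1 list only. Of the 1000 regions with the highest values, 82 were shared in the genistein list and 82 in the DMSO list, 8.20% each, and both sets of 1000 met each other at 2 places. The strongest genistein-only region (value 241.41, chr7:8723737-8723913, hg38) lay in NXPH1, which encodes a neurexin ligand of neurons. The next in a gene (227.5, chr14:68250413-68250888) lay in RAD51B, a homologous recombination gene. Others lay in SOX5 (220.03), a transcription factor gene of cartilage and neurons, ANKFY1 (214.96), PARD3 (211.88), a cell polarity gene, and ANK3 (210.21), the ankyrin G gene. The strongest DMSO-only region (195.29, chr5:155541192-155541348) was outside the annotated genes, and others lay in GEMIN5 (160.78), a gene of spliceosome assembly, TEX14 (158.74) and MPP7 (156.71).

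The shared region with the highest lesser value lay outside annotated genes on chromosome 18. It had a genistein value of 108.83 and a DMSO value of 77.48, and both regions began at the same base (chr18:12887416-12887606 with genistein, chr18:12887416-12887644 with DMSO). In MYO18A, an unconventional myosin gene, the values were 110.85 with genistein and 63.96 with DMSO over 203 common bases. TNR, which encodes the matrix protein tenascin-R, had 61.35 with genistein and 61.24 with DMSO. CDK19, a kinase gene of the Mediator complex, had 88.15 with genistein and 59.56 with DMSO, over 44 bases. The gene body of SCHIP1 held a pair with 94.54 with genistein and 58.21 with DMSO.

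The third question was where in the genome the lists differed. Relative to their sizes, genistein regions were mostly fewer on gene-dense chromosomes and more frequent on gene-poor ones. Chromosome 19, the most gene-dense with 24.8 coding genes per Mb, had 5859 genistein and 5466 DMSO regions, a scaled ratio of 0.804 (0.775 to 0.835). Chromosome 22 stood at 0.793 (0.757 to 0.832), chromosome 16 at 0.866 (0.841 to 0.891) and chromosome 17 at 0.882 (0.856 to 0.909). Chromosome 11, denser in genes than 16 and 22 with 9.63 coding genes per Mb, stood closer to 1 at 0.975 (0.955 to 0.995). Chromosome 4 stood highest at 1.15 (1.13 to 1.17), with chromosome 13 at 1.14 (1.11 to 1.17). Chromosome 14, near the middle in gene density with 5.66 coding genes per Mb, stood at 1.08 (1.06 to 1.12), and gene-poor chromosome 18 at 1.07 (1.04 to 1.10).

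The library parts split this pattern. Chromosome 4 held 7.82% and 7.89% of the genistein parts, against 7.26% of the coarse and 5.90% of the fine DMSO part, so both genistein parts lay above both DMSO parts. Chromosome 13 held 3.68% and 3.46% of the genistein parts, against 3.59% of the coarse and 2.36% of the fine DMSO part, so the coarse part lay between the genistein parts. Chromosome 19 held 1.49% of each genistein part, against 1.62% of the coarse and 2.17% of the fine DMSO part. In the coarse comparison the ratio was 1.08 (1.06 to 1.11) on chromosome 4, 0.997 (0.962 to 1.03) on chromosome 13, 0.974 (0.938 to 1.01) on chromosome 14, 1.02 (0.979 to 1.06) on chromosome 18, 0.919 (0.871 to 0.969) on chromosome 19 and 0.842 (0.788 to 0.899) on chromosome 22. Across the 22 chromosomes, the rank correlation of the ratio with coding genes per Mb was -0.776 for the whole lists, -0.639 in the coarse comparison and -0.805 against the fine DMSO part (a description, since all chromosomes come from the same libraries).

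**Figure D3:**
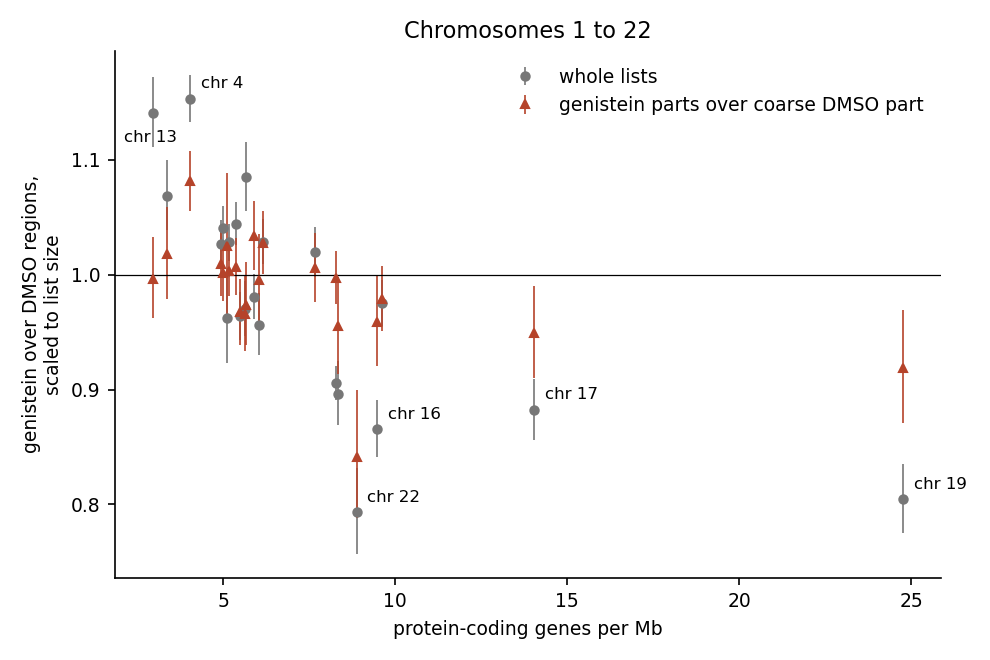
Scaled ratio of genistein over DMSO region numbers against coding genes per Mb, 1 point per chromosome with its 95% interval. Grey circles are the whole lists and red triangles the genistein parts over the coarse DMSO part; chromosomes 4 and 13 stand highest and 22 and 19 lowest in the whole lists, and the triangles lie closer to 1.

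Bins of 1 Mb showed the same gradient in finer steps. In 304 bins with no coding gene centred in them there were 164.0 genistein and 98.9 DMSO regions per bin, a scaled ratio of 1.25 (1.23 to 1.26). In 189 bins with 21 or more genes there were 114.7 genistein and 108.6 DMSO regions per bin, a ratio of 0.793 (0.778 to 0.809). The genistein density thus fell with gene density, whereas the DMSO density was at most 117.3 and at least 98.9 per bin in any class. In the coarse comparison the ratio was 1.08 (1.06 to 1.10) in bins without genes and 0.890 (0.866 to 0.914) in the densest, with the order of the 6 classes kept. Against the fine DMSO part it was 1.59 in bins without genes and 0.688 in the densest. The gradient within the coarse step was therefore narrower than that of the whole lists and ran the same way.

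**Figure D4:**
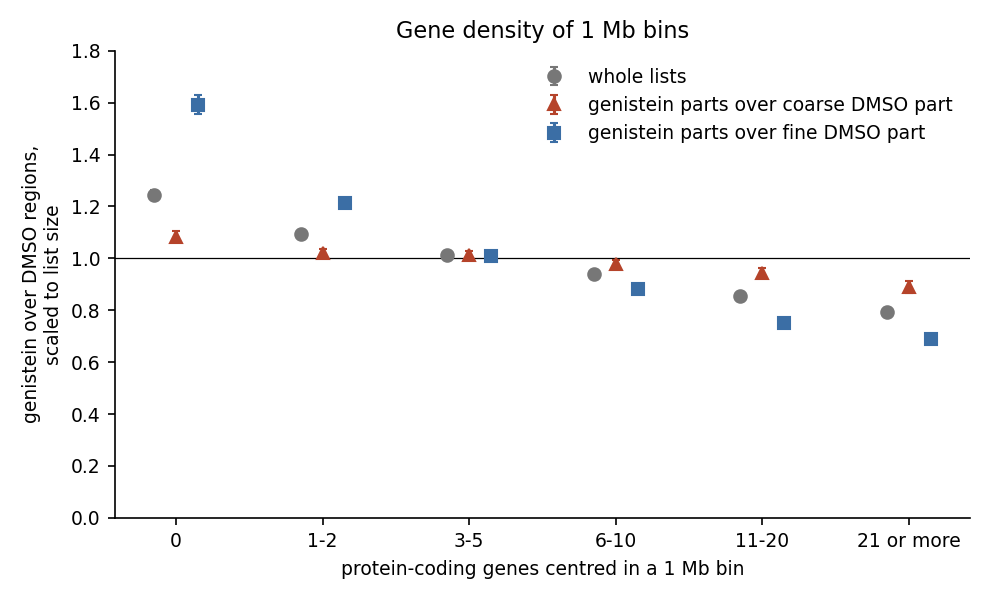
Scaled ratio of genistein over DMSO region numbers in 1 Mb bins grouped by the number of coding genes centred in them, with 95% intervals. Grey circles are the whole lists (1.25 in bins without genes, 0.793 in bins with 21 or more), red triangles the genistein parts over the coarse DMSO part (1.08 and 0.890) and blue squares the same over the fine DMSO part (1.59 and 0.688).

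The ends of genes showed a like deficit. Windows of 1 kb on both sides of either end of coding genes held 2.21% of genistein-covered bases and 2.63% of DMSO-covered bases, a log2 ratio of -0.25. Against the coarse DMSO part it was -0.09 for the larger and -0.11 for the smaller genistein part. Against the fine DMSO part it was -0.40 and -0.43, and the fine DMSO part exceeded the coarse one by 0.31 on the same log2 scale, which is more than either genistein part differed from the coarse part. Gene bodies held 46.0% of genistein-covered and 47.4% of DMSO-covered bases (log2 ratio -0.04, and -0.02 and -0.03 in the coarse comparison).

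Promoters in the RefSeq table were met rarely by either list. A genistein region overlapped 636 of 15101 promoters (4.21%), a DMSO region 654 (4.33%) and both 54. Promoters met were poorer in G and C than promoters in general, with medians of 55.3% for genistein, 56.0% for DMSO and 63.0% for all. Of 899 promoters below 40% G and C, 9.12% (7.32 to 11.2) met a genistein region and 5.34% (3.96 to 7.02) a DMSO region, a scaled ratio of 1.28 (0.887 to 1.87) that was 0.984 (0.612 to 1.62) in the coarse comparison. Of 1927 at 75% or more, 0.571% (0.285 to 1.02) met a genistein region and 0.415% (0.179 to 0.816) a DMSO region. The lowest scaled ratio of the 9 composition classes, picked out after seeing them, was that of promoters of 55% to 60% G and C, at 0.546 (0.420 to 0.708), and 0.614 (0.429 to 0.884) in the coarse comparison. The amplification before library preparation and the short reads can favour some base compositions, and their part in these shares was not tested.

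Of 1461 microRNA hairpins in the RefSeq table, 42 met a genistein region, 45 a DMSO region and 2 both. These are shown because in each hairpin both treatments covered the same stretch (capitals, 5′ to 3′). MIR433 lies at chr14:100881886-100881978 on the plus strand, in the imprinted DLK1-DIO3 domain. MIR8085 lies at chr19:44758657-44758721 on the plus strand.
MIR433: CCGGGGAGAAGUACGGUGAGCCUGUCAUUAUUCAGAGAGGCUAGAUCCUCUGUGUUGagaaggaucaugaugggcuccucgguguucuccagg
MIR8085: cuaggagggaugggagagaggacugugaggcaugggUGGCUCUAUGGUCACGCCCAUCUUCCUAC
The MIR433 regions had values of 25.08 with genistein and 4.05 with DMSO, and the MIR8085 regions 10.03 with genistein and 5.74 with DMSO.

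The fourth question was which genes the lists favoured. Of 19126 coding genes, 14600 held a genistein region, 14474 a DMSO region and 5856 (30.6%) a shared region. A gene was called where its scaled ratio was at least 2 or at most 0.5, among 4248 genes with at least 20 regions in both lists together. Called higher with genistein were 159 genes (3.74%) and called lower 156 (3.67%). Of these 4248 genes, 51.4% of the genes had a scaled ratio above 1, and the median was 1.00 (quartiles 0.777 and 1.28). Between the coarse parts 128 of 2630 genes were called higher (4.87%) and 76 lower (2.89%), and with values of at least 4, 166 of 3670 were called higher (4.52%) and 90 lower (2.45%). Of the genes called in the whole lists, 100 of the 159 and 72 of the 156 were also called in the same direction in the coarse comparison. The coarse parts are regions of the same lists, so this agreement is partly built in and is no independent support. In the coarse comparison the interval lay wholly above 1 in 41 and wholly below 1 in 45 of the 2630 genes. With no replicate lists, these counts have no test.

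The genes furthest to the genistein side were chosen by the lower bound of their interval, so their ratios are a description. PRMT3, an arginine methyltransferase gene that acts on ribosomal protein (chr11:20387716-20509338), had 14 and 7 regions in the genistein parts and 2 and 1 in the coarse and fine DMSO parts. Over the whole lists PRMT3 had 30 genistein and 4 DMSO regions, a scaled ratio of 5.63 (1.98 to 21.99). KIF18A, a kinesin gene of chromosome alignment in mitosis (chr11:28020619-28108156), had 12 and 9 in the genistein parts and 2 and 0 in the DMSO parts, 27 against 4 in all (5.07, 1.77 to 19.9). Both genes had more regions in each genistein part than in either DMSO part.

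BRIP1, the gene of a DNA helicase that partners BRCA1 in crosslink repair (chr17:61679139-61863528), had 16 and 15 regions in the genistein parts and 3 and 1 in the DMSO parts. Its whole-list numbers were 38 with genistein and 9 with DMSO (3.17, 1.51 to 7.45). VCAN encodes versican, a proteoglycan of the extracellular matrix (chr5:83471744-83582302), and had 10 and 14 in the genistein parts, 2 and 3 in the DMSO parts. CPNE8, a copine gene (chr12:38652203-38906835), had 22 and 16 in the genistein parts and 6 and 5 in the DMSO parts, 54 against 14 in all. TFPI, which encodes an inhibitor of tissue factor in coagulation, had 23 genistein and 4 DMSO regions. ZNF277, a zinc-finger gene, had 30 genistein and 5 DMSO regions, with 0 in the coarse DMSO part. NSUN3, a methyltransferase gene for mitochondrial tRNA, had 19 genistein and 2 DMSO regions. The same rule gave the read-through loci ANKHD1-EIF4EBP3 (18 with genistein, 2 with DMSO) and CHURC1-FNTB (21 with genistein, 3 with DMSO), which share their bases with the genes they join. In the coarse comparison TFPI stood at 1.78 (0.581 to 7.28), NSUN3 and CHURC1-FNTB at 2.73 and ANKHD1-EIF4EBP3 at 2.52, each lower than in the whole lists and each with an interval that included 1.

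On the other side, FAM178B (chr2:96875885-96986580) had 2 and 1 regions in the genistein parts and 10 and 15 in the coarse and fine DMSO parts. Its whole-list numbers were 4 with genistein and 26 with DMSO, a scaled ratio of 0.115 (0.029 to 0.333). VAC14 encodes the scaffold that holds FIG4 and the lipid kinase PIKfyve together (chr16:70687439-70801158), and had 3 and 2 in the genistein parts and 10 and 9 in the DMSO parts. Over the whole lists VAC14 had 9 genistein and 26 DMSO regions (0.260, 0.107 to 0.572). The coarse comparison gave 0.126 for FAM178B and 0.210 for VAC14.

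TRERF1, a zinc-finger regulator of steroid synthesis genes (chr6:42224931-42452224), had 8 and 11 in the genistein parts and 16 and 24 in the DMSO parts. CHAT, the acetylcholine synthesis gene (chr10:49609095-49667942), had 1 and 2 in the genistein parts and 6 and 9 in the DMSO parts. For AHDC1, an AT-hook protein gene, the numbers were 7 with genistein and 20 with DMSO, of which 12 were in the fine DMSO part. The others were ARHGAP39 (4 with genistein, 16 with DMSO), DENND2A (9 with genistein, 24 with DMSO), LZTFL1, a gene of ciliary transport (8 with genistein, 22 with DMSO), the PACAP receptor gene ADCYAP1R1 (6 with genistein, 18 with DMSO) and TRABD2B (30 with genistein, 53 with DMSO). Within the coarse step TRERF1 stood at 0.498 (0.243 to 1.04), DENND2A at 0.419 (0.126 to 1.40) and LZTFL1 at 0.315 (0.090 to 1.03). AHDC1 stood at 0.503 (0.128 to 2.08) and ADCYAP1R1 at 0.419 (0.097 to 1.82), and all of these intervals included 1. The intervals of ARHGAP39, CHAT and TRABD2B (0.524, 0.280 to 0.995) lay below 1. Among all 4248 genes, 28.5% had more regions in each genistein part than in either DMSO part and 7.02% had fewer, without scaling to part size.

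**Figure D5:**
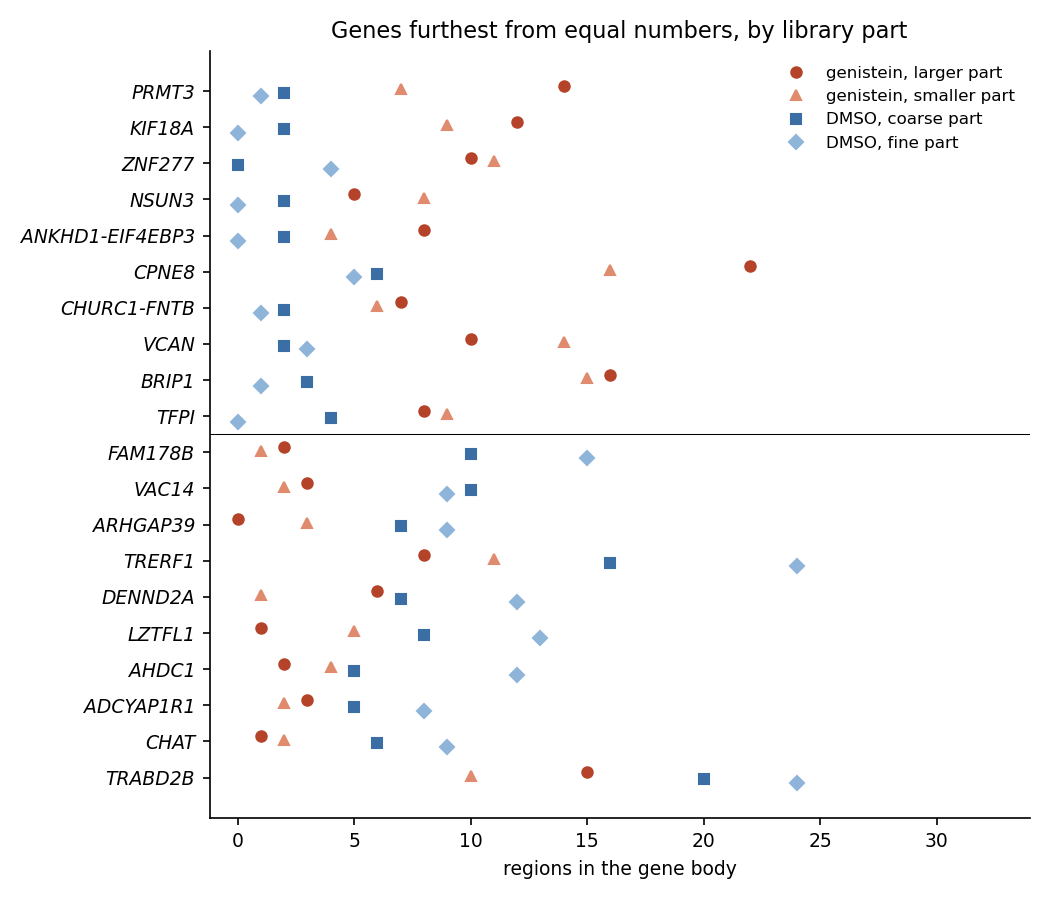
Number of regions in the gene body in each library part, for the 10 genes with the highest lower bound (above the line) and the 10 with the lowest upper bound (below it) of the scaled ratio. Genistein parts are red (circles and triangles) and DMSO parts blue (squares and diamonds), not scaled to part size; the symbols of the treatments do not cross in any of these genes, which were chosen for their ratio.

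The genes with the most shared regions were very long. Of the genistein regions in the 18 very long genes at fragile sites, however, 5.73% were shared, against 7.07% in all coding genes. RBFOX1, a splicing regulator gene of neurons and muscle (chr16:5239721-7713340, 2474 kb), had 37 shared regions out of 408 genistein and 374 DMSO regions. Per length it had 16.5 genistein and 15.1 DMSO regions per 100 kb, and its scaled ratio was 0.819 (0.710 to 0.945). PTPRT, a receptor tyrosine phosphatase gene, had 26 shared regions, and NTM, a neural adhesion gene, had 24. EYS, a photoreceptor gene (chr6:63719980-65707226), had 23 shared regions and 15.8 genistein against 9.06 DMSO regions per 100 kb, a ratio of 1.31 (1.09 to 1.58). CDH13, the T-cadherin gene, had 23 shared regions as well, with 18.2 genistein and 17.8 DMSO regions per 100 kb (0.768, 0.632 to 0.934). AGBL4, CSMD1, CNTNAP2, DAB1 and DLG2 had 22 or 23 shared regions each.

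Gene length went with the ratio. Genes under 5 kb had 873 genistein and 874 DMSO regions, a scaled ratio of 0.750 (0.682 to 0.824), and genes of 500 kb or more had 40815 genistein and 29382 DMSO regions, a ratio of 1.04 (1.03 to 1.06). The genistein density was 11.6 per 100 kb in the shortest and 16.2 in the longest class, whereas the DMSO density was between 11.2 and 11.9 in all 8 length classes. Within the coarse step the ratio was 0.883 (0.771 to 1.01) in the shortest and 1.00 (0.980 to 1.02) in the longest class.

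The gene groups below were chosen with earlier results of these data known, and each is described by counts beside those of all coding genes, whose summed scaled ratio was 0.970. Genes that rearrange in leukaemia were close to that level. The 28 genes, 27 of them with regions, had 697 genistein and 573 DMSO regions in sum, a ratio of 0.913 (0.816 to 1.02). With a pseudocount of 0.5 regions, here and in the other groups, the scaled ratio was above 1 in 10 genes and below 1 in 17, against 7012 above and 8979 below among all coding genes with regions. The median log2 ratio was -0.14, against -0.17 over all coding genes with regions. Of 16 with at least 20 regions, 1 was called lower and none higher (percent called over all genes 3.74% higher and 3.67% lower). ELL, the gene of an elongation factor, was the gene called lower, with 8 genistein and 13 DMSO regions (0.462). Its coarse ratio of 0.979 rests on 3 coarse DMSO regions.

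KMT2A, the histone methyltransferase gene that is broken in treatment-related leukaemia (chr11:118436492-118526832), had 17 genistein and 14 DMSO regions, a scaled ratio of 0.911 (0.423 to 2.00). By part it had 5 and 7 in the genistein parts and 2 and 8 in the coarse and fine DMSO parts. The coarse comparison gave 2.52, but this rests on 2 DMSO regions and has no interval, so no change of direction can be read from it. The genistein values in KMT2A ran from 6.44 to 34.08 and the DMSO values from 1.84 to 41.94, with 6 of the 14 DMSO regions below 4. A single pair was shared, where chr11:118512811-118512965 (value 18.29 with genistein) met chr11:118512652-118512883 (5.07 with DMSO). The strongest DMSO region of the gene (41.94, chr11:118488606-118488792) lay 1441 bp from the nearest genistein region. The fusion partners had 40 genistein and 24 DMSO regions in AFF1, 46 genistein and 32 DMSO regions in MLLT3, 28 genistein and 14 DMSO regions in MLLT10, and 10 genistein and 5 DMSO regions in MLLT1. Their intervals all included 1. MECOM and AFF3, among the members with the most regions, had scaled ratios of 0.902 and 0.837, with intervals that also included 1.

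The list of topoisomerase genes and genes of adduct removal and break repair held more genistein regions in sum than its share of all coding genes, and of its members above 1 all but TOP2B belong to adduct removal or repair. Over 22 genes there were 267 genistein and 149 DMSO regions, a ratio of 1.34 (1.10 to 1.65), above 1 in 15 genes and below 1 in 7, with a median log2 ratio of 0.38. The coarse comparison gave 1.67 (1.23 to 2.31), and values of at least 4 gave 1.34 (1.06 to 1.70). Of 10 members with at least 20 regions, MRE11 was called higher and none lower (over all genes 3.74% higher and 3.67% lower). MRE11, a nuclease gene of double-strand break processing, had 9 and 11 regions in the genistein parts and 5 and 1 in the DMSO parts. In all MRE11 had 25 against 8 (2.35, 1.03 to 6.02). At values of at least 4 MRE11 stood at 1.83 and in the coarse comparison at 1.68, short of the fold used. ATM, the gene of the break-signalling kinase, had 28 genistein and 12 DMSO regions (1.75, 0.862 to 3.78). PRKDC, which encodes the kinase of end joining, had 36 genistein and 21 DMSO regions. RBBP8, the CtIP gene, had 22 genistein and 15 DMSO regions, a ratio of 1.10 that was 3.98 in the coarse comparison, on 2 coarse DMSO regions. Of the topoisomerase genes themselves, TOP2B alone was above 1, with 17 genistein and 8 DMSO regions (1.59). TOP2A had 5 genistein and 4 DMSO regions (0.938) and TOP1 had 13 genistein and 11 DMSO regions (0.887). TOP1MT stood at 0.563 and TOP3A at 0.500, on 7 regions or fewer each, and TOP3B had 0 genistein regions and 1 DMSO region. These numbers count regions in the gene body and say nothing of expression.

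Tyrosine kinase genes, whose products genistein inhibits, stood at 0.899 (0.808 to 1.00) in sum, with 7 of 27 above 1 and 20 below and a median log2 ratio of -0.26. The coarse comparison gave 0.992 (0.852 to 1.16). Of 15 members with at least 20 regions, 1 was called higher and 1 lower (over all genes 3.74% higher and 3.67% lower). YES1, a SRC-family kinase gene, was called higher, with 16 genistein and 4 DMSO regions (3.00, 0.968 to 12.3). INSR, the insulin receptor gene, was called lower, with 10 genistein and 19 DMSO regions (0.395, 0.164 to 0.893). Neither passed the fold in the coarse comparison, at 1.89 for YES1 (on 2 coarse DMSO regions) and 0.671 for INSR (on 5). ERBB4 had the most genistein regions of the group, 145 against 94 with DMSO (1.16). ALK had 134 genistein and 118 DMSO regions (0.852, and 1.39 in the coarse comparison) and NTRK3 had 89 genistein and 74 DMSO regions (0.903, and 1.36 in the coarse comparison). ABL1, the kinase gene of the K562 fusion, had 4 genistein and 7 DMSO regions (0.429). Its coarse ratio of 1.26 rests on 1 coarse DMSO region and has no interval, so no change of direction can be read from it. Oestrogen receptor genes and targets stood at 1.00 (0.821 to 1.23), with 10 of 20 above 1 and a median log2 ratio of 0.08. Of 5 members with at least 20 regions, 1 was called higher and none lower, beside the same shares over all genes. This was ESR2, the oestrogen receptor beta gene, with 8 and 11 regions in the genistein parts and 3 and 3 in the DMSO parts. In all ESR2 had 25 against 7 (2.68, 1.13 to 7.34). ESR1 had 78 genistein and 63 DMSO regions (0.929, 0.658 to 1.32), GREB1 had 26 genistein and 33 DMSO regions and NRIP1 21 genistein and 18 DMSO regions.

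Very long genes at common fragile sites, where replication stalls, had the most regions of any group. Their 18 genes held 4152 genistein and 2826 DMSO regions, 238 of the genistein regions shared, a ratio of 1.10 (1.05 to 1.16), with 14 above 1 and 4 below and a median log2 ratio of 0.16. Its coarse ratio was 1.01 (0.947 to 1.08). DLG2 had 376 genistein and 255 DMSO regions (1.11), CNTNAP2 had 355 genistein and 237 DMSO regions (1.12), and LRP1B had 335 genistein and 199 DMSO regions (1.26, 1.06 to 1.51). Of these 18 genes, all with at least 20 regions, none was called in either direction (over all genes 3.74% higher and 3.67% lower).

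Erythroid genes, many of which K562 expresses, had about as many genistein as DMSO regions. The 22 on these chromosomes held 92 genistein and 93 DMSO regions, a ratio of 0.742 (0.550 to 1.00), with 3 genes above 1 and 11 below and a median log2 ratio of -0.52. The coarse comparison gave 0.812 (0.518 to 1.30). ANK1, the erythrocyte ankyrin gene, had 38 genistein and 39 DMSO regions. SLC25A37, the mitoferrin gene, had 7 genistein and 11 DMSO regions. Markers of cell types that the line does not represent varied around the level of all genes. Lymphoid markers stood at 0.741 (0.535 to 1.03; median log2 ratio -1.03) and hepatocyte markers at 1.16 (0.849 to 1.59; median 0.13). Neuronal markers stood at 1.05 (0.919 to 1.20) in sum with a median log2 ratio of -0.27, so sum and median differed in direction. Of 10 neuronal markers with at least 20 regions, 1 was called higher and 1 lower (over all genes 3.74% higher and 3.67% lower). SCN1A, a sodium channel gene, was called higher, with 37 genistein and 11 DMSO regions (2.52, 1.26 to 5.49). CAMK2A, a synaptic kinase gene, was called lower, with 7 genistein and 13 DMSO regions (0.404, 0.137 to 1.09). The coarse comparison gave 3.91 for SCN1A and 0.839 for CAMK2A, each on only 3 coarse DMSO regions and without an interval. Housekeeping genes, which are short, held 27 genistein and 25 DMSO regions in sum (0.811, 0.453 to 1.46; median log2 ratio -0.41).

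The lists were checked against the cell line. K562 is known to have lost the CDKN2A locus. From CDKN2A to CDKN2B (chr9:21967752-22009313, 41.6 kb) there was 1 genistein region and 0 DMSO regions, and in MTAP beside it (138.5 kb) there was likewise 1 genistein and 0 DMSO regions, against 13.8 genistein and 10.3 DMSO regions per 100 kb over the genome. BCR, which supplies the first exons of the fusion kinase of this line, had 7 genistein and 5 DMSO regions, or 5.09 genistein and 3.64 DMSO regions per 100 kb. ABL1 had 2.29 genistein and 4.01 DMSO regions per 100 kb, so both fusion genes lay below the genome's density in either list. SMARCB1 and IGLL5 on chromosome 22, from the same list of genes, had 0 regions in either list. Only the CDKN2A locus was set beside a known loss in this line. The low numbers at BCR, ABL1, SMARCB1 and IGLL5 are counts and are not read as low copy number. Copy number at these genes was not measured here, and its part in these low numbers was not tested.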

How the data were processed

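K562 chromatin was sonicated, TOP2A was immunocaptured, and DNA released from it was pre-amplified and sequenced, per the labels' protocols. Per the submitters' processing notes, the tools included SAMtools 0.1.19 and Bowtie2 2.1.0 and the build was hg38. How regions were called is not given in the sources used here. For each treatment the authors deposited a union of its libraries' regions, and the signal of a region has no stated unit. Where the deposited cell holds several comma-separated values (a text format, neither a count nor a score of known scale), the highest was used.

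Genistein entries on chromosomes 1 to 22 numbered 405718, of which 10098 overlapped the next entry and 42 were exact repeats; joining gave 395617 regions. Each list was also repeated at values of at least 4. A value belonged to a library part when it lay within 0.012 plus 0.0012 of itself from a multiple of exactly 1 step; values of 30 or more were not assigned. Of values below 10, 99.99% (genistein) and 98.97% (DMSO) lay on a step. Gene positions were read from RefSeq (GRCh38.p14), in a table that gives positions without strand or exons, and bodies run from start to end. Named genes were the 10 highest lower bounds and 10 lowest upper bounds of the scaled ratio, the 10 genes with most shared regions, the 3 members of each list with most regions, KMT2A and 4 fusion partners and the top 10 shared, genistein-only and DMSO-only regions. Members, gene lists and rules were chosen with earlier results of these data known. ELL, MRE11, YES1, INSR, ESR2, SCN1A, CAMK2A, TOP1, TOP1MT, TOP2A, TOP2B, TOP3A, TOP3B and ABL1 were added to the names after their values were seen.

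No test was run, because each treatment has 1 pooled list. Alternatives were the lowest value, the overlap rule, joining, chromosome X, equal list sizes, library parts, the flanks and the minimum number of regions. Scripts ran in Python 3.11.15; scipy 1.17.1 gave the intervals, pandas 2.3.3 and numpy 2.4.6 held the tables, and matplotlib 3.10.9 drew the figures. The overlap, gene counts and step search were tested on simulated data: of 20000 values drawn from 2 steps, 80.6% (genistein) and 78.4% (DMSO) were assigned, all to the right step. Some genes that the rule names are left out.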

Additional observations from a re-analysis of the deposited data

How the results depend on the processing

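No paired analysis was possible because the lists pool the libraries and no value can be tied to a replicate number. Replicates were left out only as library parts. Of the 90 alternative values of the main results, 55 stayed within the counting interval (for numbers of genes, within 1.5 times), and the directions of the region ratio and of cover kept. The summed log2 ratio of 2 gene lists changed sign within its interval: the copy-number genes had -0.30 in the whole lists and 0.42 at values of at least 4, and the oestrogen list had 0.0030 in the whole lists and -0.05 with 2 kb flanks. The other values follow.

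Shared were 4.87% of genistein and 6.49% of DMSO regions with overlap of at least 50% of the shorter region, and 18.3% of genistein and 23.96% of DMSO regions with gaps up to 500 bp. At values of at least 4 these shares were 4.92% for genistein and 9.54% for DMSO, and at values of at least 8 they were 3.08% for genistein and 7.80% for DMSO. With equal list sizes 7.05% of genistein and 7.06% of DMSO regions were shared. Between the larger genistein part and the coarse DMSO part the shares were 3.21% for genistein and 3.89% for DMSO, and with the smaller genistein part 3.06% for genistein and 3.59% for DMSO. The ratio of region numbers was 1.95 at values of at least 4, 2.54 at 8, 1.37 with entries not joined and 1.34 with chromosome X. The median value of shared regions exceeded that of genistein-only regions by 0.98, and by 0.68 at values of at least 4.

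Log2 cover of gene ends was -0.19 at values of at least 4, -0.14 at 8, and -0.086 and -0.11 for the larger and smaller genistein parts against the coarse DMSO part. Log2 cover of gene bodies was -0.025 at 8 and -0.025 and -0.026 for the parts. Log2 cover of chromosome 19 was -0.34 in the whole lists, -0.25 at values of at least 4, -0.17 at 8, and -0.13 and -0.12 for the parts. Called genes numbered 478 higher and 564 lower with a minimum of 10 regions per gene, 24 higher and 30 lower with 40, and 166 higher and 90 lower (2.45% of 3670) at values of at least 4. In the whole lists 159 genes were called higher and 156 lower. Lower calls outnumbered higher ones with both other minima, with equal list sizes (143 higher, 181 lower) and with 2 kb flanks (158 higher, 180 lower). At values of at least 4 higher calls outnumbered lower ones, so the order changed between settings. Fewer or more genes pass such minima; the cause of the other shifts was not tested. All 79 alternative values for the 20 genes with extreme bounds stayed inside the interval of their main value. So did all 33 for gene lists, which leave out the coarse comparison. There the fragile-site list (1.01, against 1.05 to 1.16) and the topoisomerase list (1.67, against 1.10 to 1.65) lay outside. KMT2A (2.52, against 0.423 to 2.00) and RBBP8 (3.98, against 0.546 to 2.28) lay outside as well, each on only 2 coarse DMSO regions. ALK (1.39, against 0.660 to 1.10) and NTRK3 (1.36, against 0.656 to 1.25) also lay outside, on 31 and 20 coarse DMSO regions. Both changed direction. These genes are examples and not a full count of list members outside their interval. ZNF277 has no region in the coarse DMSO part and so no ratio there. The comparison of genes by library part was chosen after seeing the data.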
